A study of Drosophila melanogaster with 6 samples.

Results

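Odorant binding protein genes, the genes whose symbol is Obp followed by a digit, were placed in the chromosome domains of 2 larval tissues of *Drosophila melanogaster*, the eye disc and the antennal disc at the third instar. The RefSeq annotation of Release 6, the assembly of dm6, held 51 such genes among 17684 annotated genes on the main chromosome arms, and all 51 were protein-coding. What was measured is where topologically associating domains (TADs) start and end, TADs being stretches of chromosome that contact themselves more than their surroundings in Hi-C, a method that joins and sequences DNA ends lying close together in the nucleus. Each library came from 125 pooled whole discs, which mix cell types, and every larva had the genotype yw;+;+, which both tissues share. Eye and antennal discs are joined in the larva and were cut apart by hand. The lists of eye libraries 1, 2 and 3 and of antennal libraries 2 and 3 were compared, beside 1 list per tissue that the labels call all replicates. A first antennal replicate was left out, as not analysed here. The 2 pooled lists draw on the same replicates, by their label that antennal one included, and are no further replicates.

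Odorant binding proteins are small soluble proteins secreted into the fluid around the dendrites of smell and taste neurons, mostly by the support cells of the sensory hairs. They bind odorants, pheromones or tastants, and several members are instead made in other places such as the male reproductive tract or glia. The adult hairs form during pupal life, after the stage sampled here. Many of the genes arose by tandem duplication and lie next to their closest relatives, so neighbouring members share a border and are not independent of each other. Neither expression nor contacts were in the files used here, so the labelled discs could not be checked against marker genes, and a border present in some of a disc's cells could not be told apart from a weak border.

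The positions lie on a grid of 5 kb, taken as the bin of the calls, and sequencing depth was unknown. A border is the point where a TAD ends or begins. Eye library 1 stood apart, sharing 50.3% to 52.6% of its borders within 1 bin with each other library, against 56.7% to 74.8% among the other 4. Eye libraries 2 and 3 shared 74.8%, and antennal libraries 2 and 3 shared 63.6%. With eye libraries 2 and 3, antennal library 2 shared 68.1% and 64.0%, and antennal library 3 shared 59.4% and 56.7%. The antennal libraries thus concurred with each other no better than antennal library 2 did with those eye libraries. Counts that change with it are given with and without it. No label ties the replicates to separate cultures or days.

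The 51 genes were spread over 28 places, 10 tandem clusters and 18 genes on their own. Arm 2R carried 29 of them, 3R 12, X 6, and 2L and 3L 2 each. A tandem pair was defined as consecutive Obp genes whose facing ends were at most 20 kb apart, which gave 23 pairs and put 33 genes into clusters. The largest cluster was *Obp56a* to *Obp56f*, 6 genes on 2R at 19697723 to 19713976. *Obp50a* to *Obp50e* followed with 5 genes (2R, 14370331 to 14375385), then *Obp19a* to *Obp19d* (X, 20415744 to 20420979) and *Obp59a* with *Obp58b*, *Obp58c* and *Obp58d* (2R, 22702695 to 22707772) with 4 each. The annotation gives *Obp50b* and *Obp50c* the same start and end, so their values are the same measurement.

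As a group, Obp genes lay somewhat farther inside domains than the median gene. Distance here averages, over the 2 ends of a gene, how far the nearest border is. The median Obp gene lay 28.9, 32.4 and 36.0 kb from a border in eye libraries 1, 2 and 3, and 30.3 and 27.4 kb in antennal libraries 2 and 3. The median over all annotated genes in the same libraries was 21.2, 24.2, 26.1, 23.1 and 21.5 kb. The Obp median was the higher in each of the 5 libraries, and 29 to 40 of the 51 genes lay farther than the median gene. This is a description of a list chosen with earlier results known, and no p-value was computed for it.

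Outside eye library 1, 4 or 5 of the 51 members were at a border in each list, 7.84% or 9.8%. A gene was counted as near a border when the border lay inside it or within 1 bin of an end. In eye library 1 this held for 8 of 51 Obp genes, against 19% of all genes, and in eye libraries 2 and 3 for 4 and 5 Obp genes, against 17.3% and 15.7%. In each antennal library it held for 4 Obp genes, against 18.6% and 19.1% of all genes. The pooled eye list had 4 (background 16.8%) and the pooled antennal list 5 (18.5%). Obp genes are short, with a median of 788 bp against 2163 bp for protein-coding genes, which leaves less room for a border inside them; by gene midpoints, which length does not touch, 3 to 7 Obp genes lay within 1 bin, 5.88% to 13.7%, against 10.6% to 13.4% of all genes over the 5 libraries. In eye library 1 the Obp share by midpoint, 13.7%, was close to that of all genes, 13.4%. These counts rest on few genes and were not tested. The tandem pair *Obp99d* and *Obp99b* was near a border in eye libraries 2 and 3, antennal library 2 and both pooled lists.

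The same position inside domains was seen relative to domain width. A midpoint at the edge of its TAD has a relative position of 0 and one at the centre 0.5. The median Obp gene was at 0.248, 0.323, 0.314, 0.285 and 0.313 of its TAD's width from the nearer edge in eye libraries 1, 2 and 3 and antennal libraries 2 and 3, against 0.210 to 0.225 for all genes. The host TADs of Obp genes had median widths of 100, 140, 140, 105 and 105 kb, against 110, 135, 135, 130 and 115 kb for all genes, narrower in 3 libraries and wider in 2. Their gene content was alike, with a median of 16 to 20 coding genes in the host TAD of an Obp gene and 16 to 19 in that of any coding gene.

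**Figure D1:**
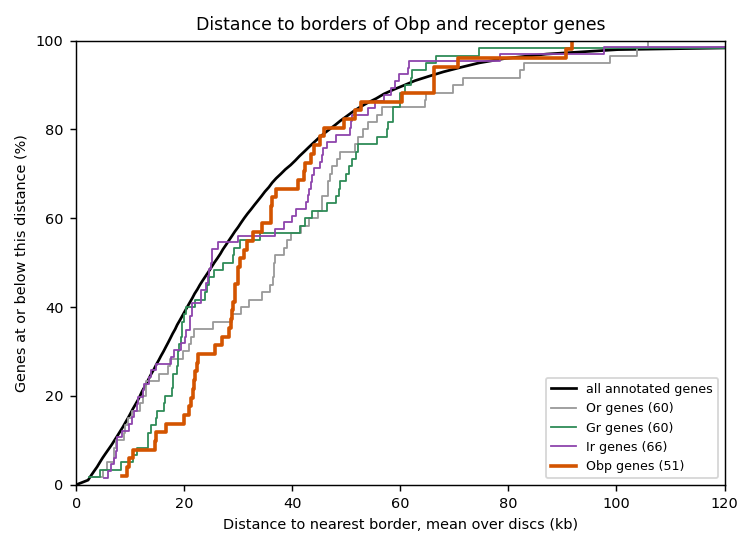
Cumulative share of genes (vertical axis, %) at or below a distance to the nearest border (horizontal axis, kb, mean over the discs) for all annotated genes, the 51 Obp genes and the Or, Gr and Ir receptor families. The Obp curve starts at 8.47 kb and lies to the right of that of all genes in its lower part, with medians of 30.4 and 25.6 kb. The curves are close at the upper quartile, 43.7 and 42.2 kb, and cross above it.

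Averaged over the discs, Obp genes ranged from 8.47 to 91.7 kb, with a median of 30.4 kb, against 25.6 kb for all genes. The nearest were *Obp28a* (8.47 kb), *Obp99b* (9.37 kb) and *Obp22a* (9.76 kb). The farthest were *Obp83a* (91.7 kb), *Obp83b* (90.8 kb) and *Obp49a* (70.7 kb). The receptor families that act in the same sensory hairs had medians of 36.7 kb for 60 odorant receptor (Or) genes, 28.1 kb for 60 gustatory receptor (Gr) genes and 25.04 kb for 66 ionotropic receptor (Ir) genes. The Obp median thus lay between those of the Or and Gr genes; no difference between the families was tested.

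**Figure D2:**
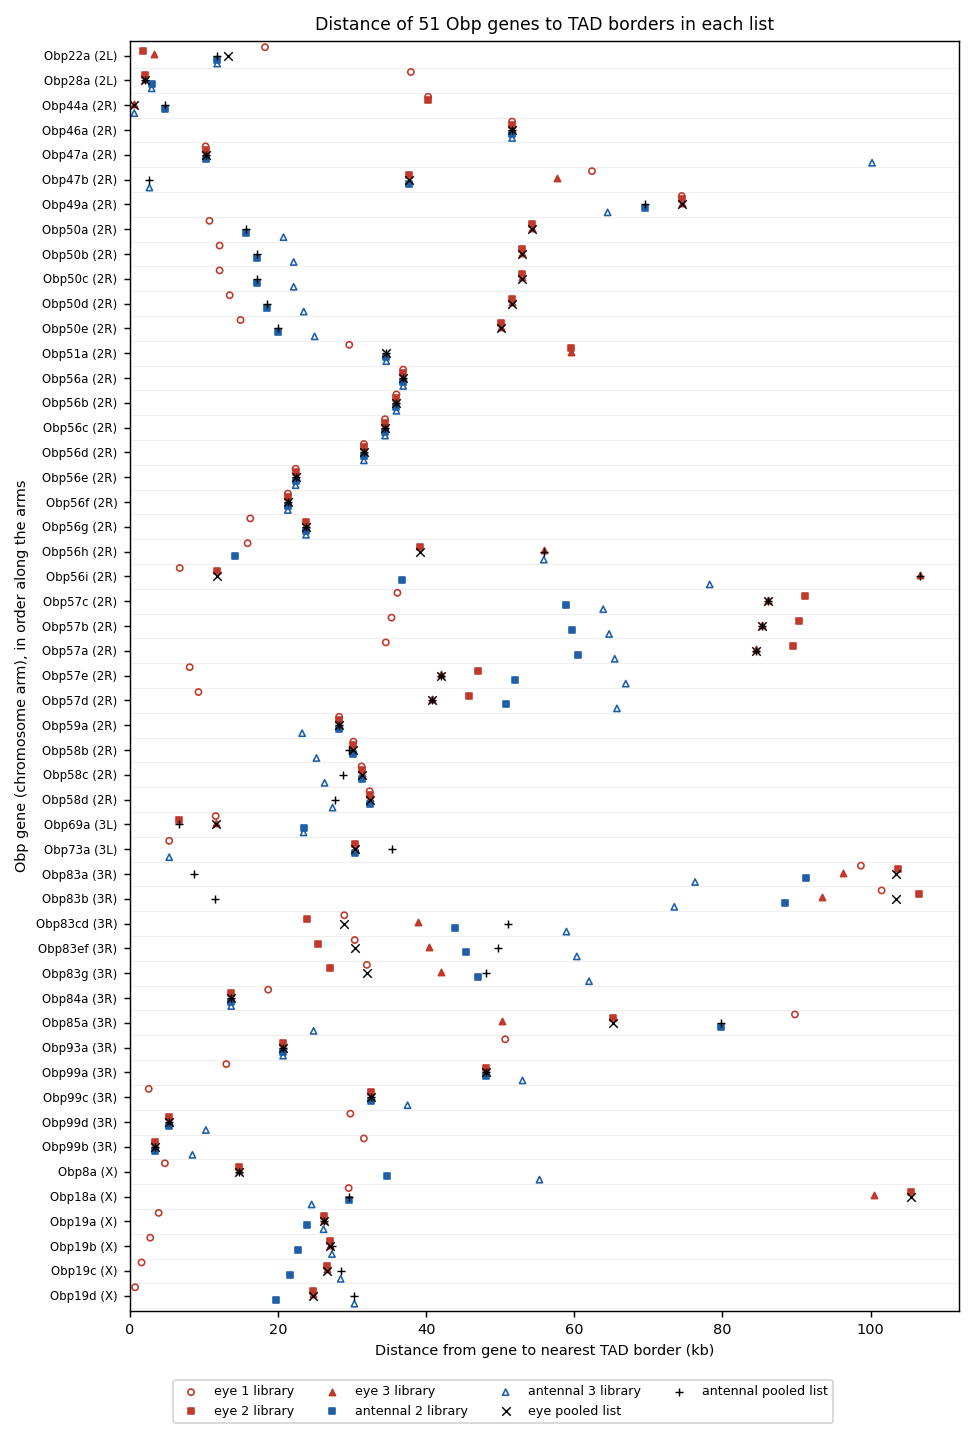
Distance to the nearest border (horizontal axis, kb) of each of the 51 Obp genes (rows, in order along the arms) in the 3 eye libraries (red), the 2 antennal libraries (blue) and the authors' pooled lists (black). *Obp46a* and *Obp56a* to *Obp56f* have the same value in every list, while *Obp18a* and *Obp56i* range over 80.9 and 100 kb among the 5 libraries.

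Tandem Obp genes mostly shared a domain, as did most neighbouring coding genes. None of the 23 tandem pairs had a border between the gene midpoints in eye libraries 2 and 3, antennal libraries 2 and 3 or either pooled list, and 2 pairs had one in eye library 1. Among neighbouring coding genes at most 20 kb apart, a border parted 7.71%, 6.66%, 6.31%, 6.98% and 7.56% of pairs in eye libraries 1, 2 and 3 and antennal libraries 2 and 3, and 6.55% and 7.07% in the pooled eye and antennal lists. Tandem Obp genes lie closer together than that, with a median spacing of 1.37 kb between midpoints against 3.52 kb, and 21 of the 23 pairs are within 5 kb. Among coding neighbours that close, a limit chosen after these values were seen, a border parted 3.63%, 3.21%, 2.38%, 3.64% and 3.63% of pairs in the same libraries, and 3.01% and 3.39% in the pooled lists. Of the 21 Obp pairs that close, 1 was parted in eye library 1 and 0 in each other list, counts near that background. The 10 clusters span 65.0 kb in all, where the border density of the arms would place 0.556 to 0.606 borders per library. Eye library 1 had 2 borders there and the other 4 libraries none, and no test was run on these counts.

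Both parted pairs were in eye library 1. On X its border at 20420 kb fell inside *Obp19d*, whose product was first found as the pheromone-binding-protein-related protein PBPRP2, 0.296 kb from that gene's midpoint, and so separated it from *Obp19c*. The other lists placed *Obp19a* to *Obp19d* inside 1 TAD that began at 20390 kb and ended at 20440 to 20465 kb. On 3R the border of eye library 1 at 29685 kb, inside *Gycalpha99B*, a guanylyl cyclase subunit gene, separated *Obp99a* from *Obp99c*. The other lists held *Obp99a*, *Obp99c*, *Obp99d* and *Obp99b* in a single TAD ending at 29720 or 29725 kb. No tandem pair was parted without eye library 1.

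A gap in the calls split the *Obp56* genes at the same place in every list. *Obp56a* to *Obp56f* shared a TAD that ended at 19735 kb on 2R in the 5 libraries and the 2 pooled lists. It began at 19645, 19640 and 19650 kb in eye libraries 1, 2 and 3 and at 19635 and 19630 kb in antennal libraries 2 and 3. This left edge thus did not overlap between the discs, and the pooled lists had it at 19645 and 19635 kb. *Obp56g* lay in a TAD that began at 19760 kb in all of them. Between these ends ran a 25 kb stretch without any TAD, which held 68 annotated genes, all of them 5S ribosomal RNA genes or pseudogenes. The nearest border of *Obp56a* to *Obp56f* is thus the edge of a stretch without calls, and their distances of 21.3 kb (*Obp56f*) to 36.9 kb (*Obp56a*) were identical in all lists. When only borders shared by adjoining TADs counted, the eye minus antennal difference was -12.5 kb for each of these genes. Whether reads could be placed in that repeat array was not tested.

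Beyond the gap the lists differed. *Obp56h*, which acts in male mating behaviour, shared a TAD with *Obp56g* in 4 of 5 libraries, the exception being a border at 19800 kb in eye library 1. *Obp56i* was parted from *Obp56h* at 19860 kb in eye library 1, 19855 kb in eye library 2 and 19830 kb in antennal library 2. In eye library 3 and antennal library 3 both genes shared 1 TAD that also held *Obp56g*. The pooled eye list had the border at 19855 kb and the pooled antennal list had none, so the pooled lists differ by tissue where the libraries of each tissue do not concur.

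**Figure D3:**
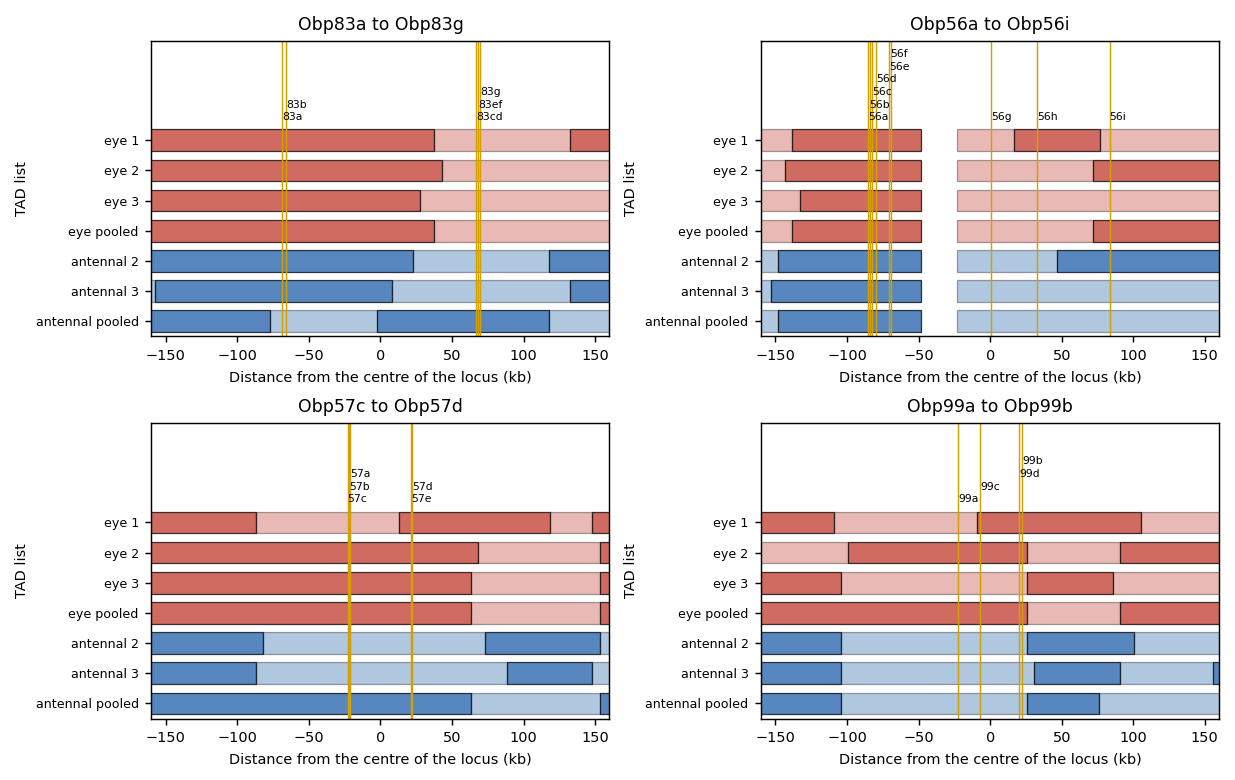
TADs (boxes, alternating shades) of the 3 eye libraries and pooled eye list (red) and of the antennal disc lists (blue) around 4 groups of Obp genes (yellow lines), against distance from the centre of each group (kb). The border between the 2 *Obp83* clusters lies farther left in the antennal lists, and a stretch without TADs parts *Obp56f* from *Obp56g* in all 7 lists.

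For all 5 *Obp83* genes the distances in the eye and antennal libraries did not overlap, and a single border lay between their 2 clusters. *Obp83a* and *Obp83b*, known as OS-F and OS-E and abundant in adult antennal hairs, lie on 3R 131 kb before *Obp83cd*, *Obp83ef* and *Obp83g*, and the border between them, seen in all 7 lists, was the only one there. That border was at 6080, 6085 and 6070 kb in eye libraries 1, 2 and 3 and at 6065 and 6050 kb in antennal libraries 2 and 3. The antennal positions were lower than every eye position, by 1 bin at the closest. The pooled lists put it at 6080 kb for the eye disc and 6040 kb for the antennal one.

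Distances differed in opposite directions in the 2 clusters. *Obp83b* was 101.5, 106.5 and 93.5 kb from a border in eye libraries 1, 2 and 3 and 88.5 and 73.5 kb in antennal libraries 2 and 3, with means of 100.5 ± 6.55 kb (SD, n = 3) and 81.0 ± 10.6 kb (SD, n = 2). In eye libraries 1 and 2 the nearest border of *Obp83a* and *Obp83b* was the left edge of their TAD, so their eye means mix 2 borders. *Obp83cd*, which encodes a protein with a doubled binding domain, went the other way, at 28.9, 23.9 and 38.9 kb in the eye libraries and 43.9 and 58.9 kb in the antennal ones, means of 30.6 ± 7.64 kb (n = 3) and 51.4 ± 10.6 kb (n = 2). *Obp83ef* and *Obp83g* moved with it, and *Obp83cd* and *Obp83ef* overlap in the annotation. Each of the 5 genes gave p = 0.2 (two-sided, exact permutation over libraries; adjusted p = 1), the smallest that 3 against 2 libraries allow.

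*Or83c*, the gene of an odorant receptor for farnesol, lies where this border moves. It was in the TAD of *Obp83a* and *Obp83b* in eye libraries 1 and 2 and the pooled eye list. It was in that of *Obp83cd*, *Obp83ef* and *Obp83g* in eye library 3, both antennal libraries and the pooled antennal list. The pooled antennal list also had a border at 5965 kb, 8.70 kb from *Obp83a*. Antennal libraries 2 and 3 had no border there, and *Obp83a* was 91.3 and 76.3 kb from one.

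The *Obp57* genes are known for taste in the legs, where *Obp57d* and *Obp57e* act in the response to host plant acids. *Obp57e* and *Obp57d* shared a TAD with *Obp57c*, *Obp57b* and *Obp57a*, 42.1 kb away, in all lists but eye library 1, which had a border at 20540 kb inside *CG13428*. *Obp57e* lay 8.05, 46.9 and 41.9 kb from a border in eye libraries 1, 2 and 3 and 51.9 and 66.9 kb in antennal libraries 2 and 3. The discs did not overlap, yet eye library 2 and antennal library 2 were 1 bin apart. In the pooled lists the TAD of *Obp57e* had the same start and end, and its distance was 41.9 kb in both.

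The *Obp50* cluster, genes of the Plus-C group with extra cysteines, differed between the pooled lists but not by tissue among the libraries. Its TAD began at 14360 kb in eye library 1, at 14355 and 14350 kb in antennal libraries 2 and 3, and at 14270 and 14275 kb in eye libraries 2 and 3. *Obp50a* was accordingly 10.7, 54.3 and 54.3 kb from a border in eye libraries 1, 2 and 3 and 15.7 and 20.7 kb in the antennal ones, which overlap. The left edge in eye library 1 was within 2 bins of those in the antennal libraries. The pooled lists gave 54.3 kb and 15.7 kb.

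**Figure D4:**
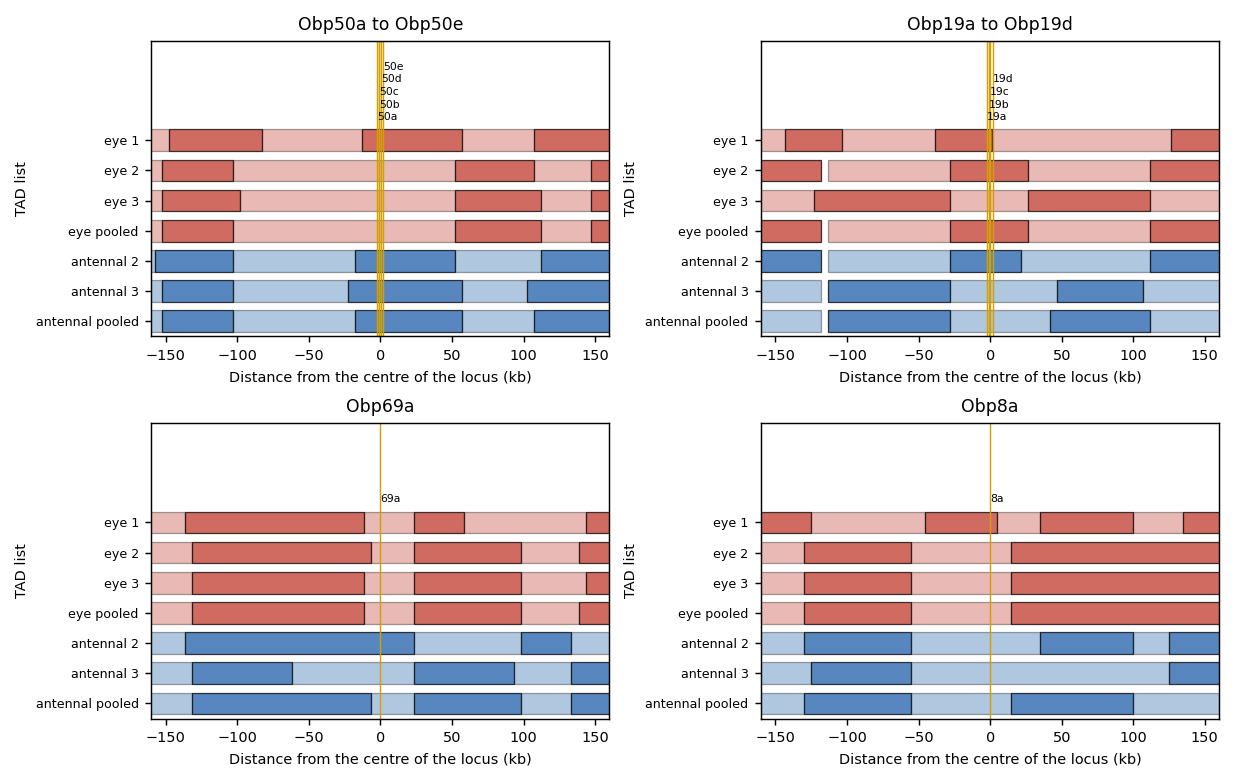
TADs (boxes) in the eye disc lists (red) and antennal disc lists (blue) around *Obp50a* to *Obp50e*, *Obp19a* to *Obp19d*, *Obp69a* and *Obp8a* (yellow lines), against distance from the centre of each locus (kb). The border left of *Obp50a* is missing in eye libraries 2 and 3, and that left of *Obp69a* in both antennal libraries though not in the pooled antennal list.

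Across the family, 10 of 51 Obp genes (19.6%) had distances that did not overlap between the discs, against 13% of 17570 genes tested. Without eye library 2 the shares were 21.6% and 21.8%, and without antennal library 3 they were 21.6% and 26.8%, so the family's share was no longer the higher one. Of the 10, 7 (13.7%) were nearer to a border in every eye library than in either antennal one, against 5.29%, and 3 (5.88%) were nearer in the antennal disc, against 7.73%. Among protein-coding genes these shares were 5.11% and 7.59%. The 7 were *Obp57e*, *Obp57d*, *Obp69a*, *Obp83cd*, *Obp83ef*, *Obp83g* and *Obp8a*, from 4 places, and the 3 were *Obp49a*, *Obp83a* and *Obp83b*, from 2. The 5 *Obp83* genes on either side of 1 border are among the 10, so the count over members is no count of independent borders. No gene passed the two-sided exact permutation test at 0.05, adjusted over all 17570 genes or unadjusted, as 3 against 2 libraries allow no p below 0.2 (0 called, 0%).

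Without eye library 1, where fewer libraries must concur, 9 Obp genes from 6 places were nearer in the eye disc (9.39% of all genes) and 13 from 6 places in the antennal disc (14.7% of all genes). The additions were *Obp22a* and *Obp28a* on the eye side. On the antennal side they were the 5 *Obp50* genes, *Obp57a*, *Obp57b*, *Obp57c*, *Obp51a* and *Obp18a*. With antennal library 3 left out too, the counts were 10 (18.5% of all genes) and 18 (23.7%), from 2 libraries against 1.

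**Figure D5:**
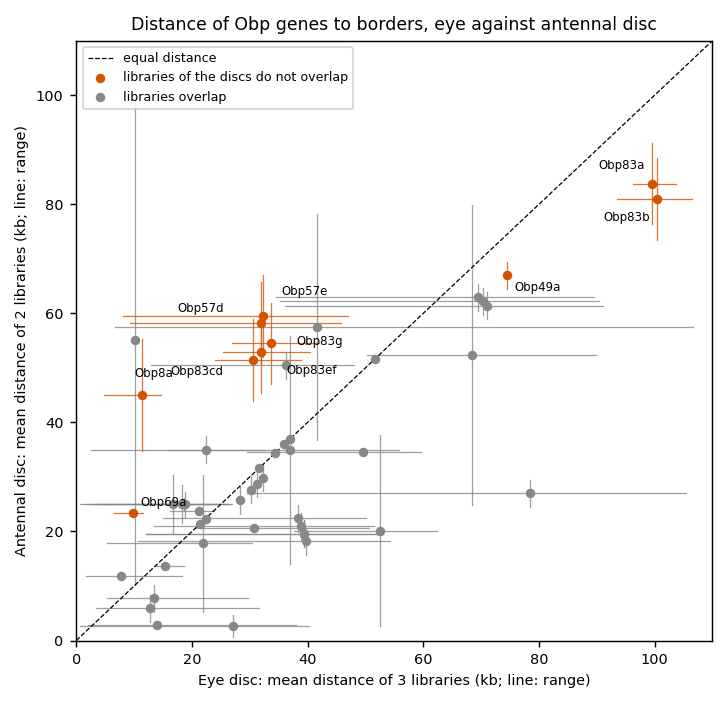
Mean distance to the nearest border (kb) of each Obp gene in 2 antennal libraries (vertical axis) against 3 eye libraries (horizontal axis), with lines for the range over libraries. The 10 genes in orange have ranges that do not overlap, 7 above and 3 below the line of equal distance.

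Per library, the median Obp distance averaged 32.4 ± 3.52 kb (SD, n = 3) for eye discs, against 28.9 ± 2.12 kb (SD, n = 2) for antennal discs. This difference of 3.57 kb is about the spread among eye libraries, and the median over all genes shifted in the same direction by 1.56 kb. Eye libraries 1, 2 and 3 had 1207, 1167 and 1142 borders, and antennal libraries 2 and 3 had more, 1216 and 1246. Whether the distances follow from the number of borders was not tested. Of the single genes, *Obp69a*, first described as the pheromone-binding-protein-related protein PBPRP1, was 11.6, 6.56 and 11.6 kb from a border in eye libraries 1, 2 and 3 and 23.4 kb in each antennal library. A border at 12385 or 12390 kb on 3L, just before the gene, was in every eye library and in neither antennal one. It was also in the pooled antennal list, at 12390 kb, where *Obp69a* is 6.56 kb away, so the direction between the discs turns in the pooled lists.

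*Obp8a*, on X, is a gene of the male reproductive tract. It lay 4.71, 14.7 and 14.7 kb from a border in eye libraries 1, 2 and 3 and 34.7 and 55.3 kb in antennal libraries 2 and 3. Its TAD began at 9160 kb in each list but eye library 1. It ended earlier in the eye disc, at 9220 to 9230 kb, than in the antennal libraries, at 9250 and 9340 kb. The nearest border was this end in the eye libraries and antennal library 2. In antennal library 3 it was the TAD start at 9160 kb, so the antennal values are distances to different borders. The pooled antennal list again gave the eye position, 9230 kb. For both *Obp69a* and *Obp8a* the antennal value therefore rests on the 2 libraries and is not seen in the list that pools all antennal replicates.

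*Obp49a*, needed where bitter compounds suppress sweet taste, lay 74.5 kb from a border in each eye library and 69.5 and 64.5 kb in antennal libraries 2 and 3, a shift of 1 and 2 bins. *Obp18a* on X was 29.5, 105.5 and 100.5 kb from a border in eye libraries 1, 2 and 3 and 29.5 and 24.5 kb in the antennal libraries. Eye libraries 2 and 3 had no border between 19035 and 19295 kb, while the other 3 libraries ended the TAD at 19160 or 19165 kb. The pooled lists followed suit, with 105.5 kb for the eye disc and 29.5 kb for the antennal one. Its libraries overlapped at 29.5 kb.

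The domain that changed least was that of *Obp46a* on 2R. Its TAD ran from 10260 to 10425 kb in the 5 libraries and both pooled lists. It was the only Obp gene whose TAD had both edges within 1 bin over the 5 libraries, against 6.21% of all hosted genes. Without eye library 1 there were 5 such genes (13.8% of all hosted genes), the additions being the 4 *Obp99* genes. Without antennal library 3 there were also 5 (11.3%), with *Obp59a*, *Obp58b*, *Obp58c* and *Obp58d* added. By distance, which needs only the nearest border to hold, 12 Obp genes from 4 places varied by at most 1 bin over the 5 libraries, against 28.5% of all genes. Besides *Obp46a* these were *Obp84a*, the 6 genes whose nearest border is the edge of the stretch without calls at the 5S genes, and *Obp59a*, which acts in sensing humidity, with *Obp58b*, *Obp58c* and *Obp58d*. Without eye library 1 the count was 21 (42.5% of all genes), with *Obp28a*, *Obp56g*, *Obp93a*, the *Obp99* genes, *Obp19a* and *Obp19b* added. *Obp59a* lay 28.2 kb from a border in the 3 eye libraries and in antennal library 2 and 23.2 kb in antennal library 3.

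Between the pooled lists, 13 of 51 Obp genes (25.5%) kept the same host TAD with both edges within 1 bin, against 48.1% of all genes. These were *Obp28a*, *Obp46a*, *Obp49a*, *Obp69a*, *Obp73a*, *Obp84a*, *Obp93a*, *Obp8a* and the 5 *Obp57* genes. Genes of a cluster passed or failed together, so the Obp share does not count independent domains. *Obp56a* to *Obp56f* failed on their left edge, at 19645 kb in the pooled eye list and 19635 kb in the antennal one. The *Obp99* genes failed as their pooled eye TAD began at 29495 kb, where no eye library began their TADs. At 2 bins the shares were 39.2% and 54.2%. By distance alone, 2 Obp genes (*Obp56i* and *Obp83cd*) were over 20 kb nearer to a border in the pooled eye list (5.19% of all genes) and 9 in the pooled antennal list (9.67%). The 9 were the *Obp50* genes, *Obp83a*, *Obp83b*, *Obp47b* and *Obp18a*, from 4 places. The pooled eye list had 1146 borders and the pooled antennal list 1238, and the shares were not adjusted for this. Pooled lists have no replicates, and these shares carry no error.

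Near a border, the side on which a gene fell could change within 1 bin. *Obp28a*, on 2L at 7496791 to 7497365, is among the most abundant antennal Obp genes of the adult. Its TAD began at 7495 kb, before the gene, in eye libraries 2 and 3 and both pooled lists, and was 40 kb wide with *Obp28a* as its only coding gene. In both antennal libraries a TAD of 70 kb that also held *Gr28a* and *Gr28b* ended at 7500 kb, after the gene. Distances of 2.08 kb in those eye libraries and 2.92 kb in the antennal ones hide this change of side, and eye library 1 had no border nearer than 37.9 kb.

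*Obp44a*, which is expressed in glia of the brain, showed the same: its TAD ended at 8135 kb in eye library 3, antennal library 3 and the pooled eye list, and began at 8130 kb in antennal library 2 and the pooled antennal list. *Obp22a* on 2L, expressed in the male reproductive tract, had a TAD ending at 1995 kb in eye library 3 and one starting at 1990 kb in eye library 2, with values of 3.23 and 1.77 kb. Such calls differ by 1 bin while the host TAD they give differs wholly.

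Several lone genes varied widely between libraries of the same tissue. *Obp47a* lay 10.2 kb from a border in 4 libraries and 100.2 kb in antennal library 3. *Obp85a*, a Plus-C gene, ranged from 50.2 to 89.8 kb among eye libraries and was 79.8 and 24.8 kb in antennal libraries 2 and 3. *Obp93a*, another Plus-C gene, lay 20.7 kb from a border in all libraries but eye library 1, at 50.7 kb. *Obp73a*, the longest member at 10582 bp, had a border inside it at 16950 kb in eye library 1 and antennal library 3. Its value there, 5.29 kb, is the mean over its 2 ends, and the border lay 0.349 kb from its midpoint. In the other 3 libraries the gene lay 30.3 kb from a border.

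The 11 Obp genes listed from general knowledge as adult antennal ones spanned the range of the family. *Obp19a*, *Obp19d*, *Obp28a*, *Obp56d*, *Obp57a*, *Obp59a*, *Obp69a*, *Obp83a*, *Obp83b*, *Obp84a* and *Obp99a* had a median distance of 27.0 kb over the discs, from 8.47 to 91.7 kb, against 30.7 kb for the other 40. In the eye libraries their median averaged 28.2 kb and in the antennal ones 29.3 kb, and the other 40 had 33.5 and 29.1 kb. The median of the 11 was the value of *Obp59a*, 28.2 kb, in all libraries but antennal library 3. There it was that of *Obp19d*, 30.3 kb. No difference between these groups was tested. Groups of libraries did not overlap for 1 of the 11 in the eye direction (*Obp69a*) and 2 in the antennal direction (*Obp83a* and *Obp83b*), against 5.29% and 7.73% of all genes.

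Of 10 other odour-handling genes, 2 did not overlap between the discs, against 13% of all genes. *lush*, the binding protein of the male pheromone and a family member under another name, lay 14.8, 30.2 and 24.8 kb from a border in eye libraries 1, 2 and 3 and 30.2 and 19.8 kb in antennal libraries 2 and 3. *Orco*, the shared odorant co-receptor, was at 21.5 ± 2.89 kb among eye libraries (SD, n = 3) and at 24.8 kb in each antennal library. Both overlapped between the discs, as did *Snmp1*, *Snmp2*, *a10*, *EbpIII*, *Est-6* and *Jhedup*. *Os-C* did not overlap but differed by less than a bin, at 4.29 kb in each eye library and 0.714 kb in each antennal one. *a5* lay 4.58, 25.4 and 0.423 kb from a border in the eye libraries and 139.6 and 54.6 kb in the antennal ones, with exact permutation p = 0.2 for both genes. In the pooled eye and antennal lists *a5* lay 25.4 and 34.6 kb from a border, the antennal value being below those of both antennal libraries. *Os-C* kept its values of 4.29 and 0.714 kb there.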

How the data were processed

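Hi-C TAD lists of 3 eye disc and 2 antennal libraries, and 1 pooled list per tissue, were used as deposited by the authors; they hold chromosome, start and end in base pairs, with no score, contact or read number. Reads were aligned to dm6 with Bowtie2 2.3.4.2, per the submitters' processing notes; which TAD caller and bin size made them is not given in the sources used here. All positions are multiples of 5000 bp. Where a TAD began within 1 bin of the previous end, both counted as 1 border. Genes came from RefSeq Release 6, which gave no strand or sequence; the genes on chromosome 4 lack values in eye library 1 and antennal library 3, which left 17570 genes for the test. Each gene was tested by a two-sided exact permutation of library labels (10 splits into 3 and 2), with Benjamini-Hochberg adjustment; p-values measure only the spread between these pools. Depth, and so counting error, is unknown. Members and lists were chosen with earlier results of these data known. Every Obp gene could be named; the others named are genes at borders parting Obp genes and 10 odour-handling genes, and receptor genes sharing an Obp TAD and the lone members given per library were picked with their values in view. Scripts were tested on simulated data. Alternatives covered border definition, tolerance, gene position, pair spacing and each library. Python 3.11.15, numpy 2.4.6, pandas 2.3.3 and matplotlib 3.10.9 were used.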

Additional observations from a re-analysis of the deposited data

How the results depend on the processing

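The eye minus antennal difference in median Obp distance, 3.57 kb, stayed positive under all alternatives, from 1.79 to 5.31 kb with a library left out, 3.54 kb in the pooled lists and 5.75 kb when borders had to be shared by adjoining TADs. No paired design is stated for the replicate numbers: deviations from the tissue mean correlated at 0.32 for libraries numbered 2 and -0.29 for those numbered 3. With 2 antennal libraries the antennal deviations mirror each other. Eye library 2 with antennal library 3 thus gave -0.32, and eye library 3 with antennal library 2 gave 0.29. These values cannot decide whether replicates were paired. With the replicate number as a block, over numbers 2 and 3, the difference was 5.31 kb. The difference in tandem pairs parted per library went from 0.667 to 0. Both values come from the same libraries as leaving out eye library 1 and are no separate check. The 10 Obp genes without overlap became 16 when borders had to be shared (12.9% of all genes), 28 with eye library 1 and antennal library 3 both left out (42.3% of all genes) and 11 to 23 with a library left out, where fewer libraries must concur; as shares of Obp genes and of all genes, these were 43.1% and 24.1% without eye library 1, 21.6% and 21.8% without eye library 2, 23.5% and 18% without eye library 3, 45.1% and 33.1% without antennal library 2, and 21.6% and 26.8% without antennal library 3. The rise to 16 with shared borders came from *Obp56a* to *Obp56f*, each at -12.5 kb through the left edge of their common TAD. Genes nearer a border in every eye library went from 7 to 13, and the opposite direction stayed at 3. That rise is thus a single border counted 6 times. The average of 5 Obp genes per library within 1 bin (9.8%, against 17.9% of all genes) was 1 with a border inside the gene (1.96%, against 4.94%), and 4.25 to 5.25 with a library left out (8.33% to 10.3%, against 17.6% to 18.5%). The 2 partings of tandem pairs, summed over libraries (1.74% over pairs and libraries, against 7.04% for coding pairs), were 1 at most 10 kb apart (0.909% against 6.6%), 7 at most 50 kb apart (5.19% against 7.76%), 7 with facing ends widened by 1 bin (6.09% against 16.2%), 0 with both of those libraries left out, and 0 to 2 with a library left out, 0 being without eye library 1. The 13 Obp genes with the same TAD in the pooled lists became 20 at 2 bins (54.2% of all genes). Of 663 single-gene differences under alternatives, 643 moved by no more than the spread (SD) between libraries of a disc. Leaving out a single library, or using the block, cannot move a difference by more than that. Those settings could not fail and are no check of stability. Direction turned in 36, for 17 genes: 7 of these were without eye library 1 (*Obp28a*, *Obp56i*, *Obp99d*, *Obp99b*, *Obp19a*, *Obp19b* and *Obp19c*), and 6 in the pooled lists. Of the 10 genes without overlap, 6 kept their direction in the pooled lists, where *Obp69a* turned and *Obp57e*, *Obp57d* and *Obp8a* had a difference of 0. Leaving out both libraries, and each library for the counts of stable domains and distances, was chosen after seeing the data. Without read numbers, a border missed for lack of depth cannot be told from one that is absent.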

Other observations

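Some Obp genes shared their TAD with receptor genes of smell or taste in every list. *Obp46a* shared its TAD with *Gr47a*, *Ir47a* and *Ir47b* in all 7 lists, *Obp47b* with *Or47b*, *Obp56a* to *Obp56f* with *Ir56e*, and *Obp56g* with *Or56a*. Other pairings depended on the list. *Obp22a* shared a TAD with *Or22c* in 1 of 3 eye libraries, both antennal ones and the pooled antennal list, and *Obp8a* with *Ir8a*, a co-receptor gene, in both antennal libraries and no eye one; the pooled antennal list did not have the latter. *Obp85a* shared a TAD with *Or85a* in eye library 1, antennal library 2 and the pooled antennal list.

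In the eye libraries 13, 14 and 15 of 51 Obp genes had an Or, Gr or Ir gene in their TAD, 25.5%, 27.5% and 29.4%. The background was 12.8%, 14.9% and 15.7% of coding genes outside those receptor families, Obp genes included. In each antennal library 17 of 51 Obp genes had one, 33.3%, against a background of 13.9% and 13.5%. Counted by domain, 6 to 9 of the 24 to 29 TADs with an Obp gene held a receptor gene in these libraries, against 9.54% to 10.8% of TADs with any gene. Every TAD counted equally there, whatever its number of genes, and gene number was not matched. The pattern was seen in these data and not tested. *Obp56a* to *Obp56f* with a single Ir gene supply 6 of the genes. In both antennal libraries and eye library 3, *Obp83cd*, *Obp83ef* and *Obp83g* counted through the single gene *Or83c*. In eye libraries 1 and 2 *Obp83a* and *Obp83b* counted through it instead. The position of 1 border thus changes these counts between libraries.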
